A study of Homo sapiens with 2 samples.

Results

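The genes described are 62 extracellular matrix and focal adhesion genes in SNU-449 cells, among 2238 genes that the authors' deposited table lists as changed after ezetimibe under 327 KEGG pathways. They were chosen by that call of change. A gene entered when it was listed under Focal adhesion or ECM-receptor interaction, which gave 87 genes. The rule then removed 25 that were also under the Hippo, TGF-beta, Wnt, cell cycle, autophagy, mitophagy, cytokine receptor or TNF pathways, or that were 1 of 9 genes removed by name, among them CAV1, AKT1 and JUN. By role, 22 of them encode matrix proteins, 14 matrix receptors and 26 growth factors or proteins inside the cell. SNU-449 is a human hepatocellular carcinoma cell line. Total RNA was sequenced as 1 library from cells treated with ezetimibe for 24 h and 1 library from control cells. Ezetimibe lowers cholesterol uptake in the gut by acting on the transporter NPC1L1. Both libraries come from the same line, derived from a single tumour, and the sources used here state neither the dose nor the control's vehicle.

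The extracellular matrix is the network of collagens, laminins and glycoproteins that cells secrete and hold on to. Integrins, paired receptors of an alpha and a beta chain, bind this network outside the cell and connect it through talin and vinculin to actin inside. The contacts where they gather are the focal adhesions, from which kinases and small GTPases signal to the cytoskeleton and to growth pathways. In liver, the matrix of the space beside hepatocytes is sparse and becomes dense in fibrosis and in many liver tumours.

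For each gene the authors' deposited table states only a direction. With 1 library per condition no difference has a replicate check, sequencing depth is unknown, and no value per library was analysed here. Up means listed as up in the comparison named ezetimibe against control, a direction that no value in the table can check. Of the 8877 background genes of the table, 25.2% were listed as changed, 8.20% as up and 17.0% as down. Among all listed genes 728 were up and 1510 down, a share up of 32.5%. Of the markers of cell types a liver culture could hold, 4 of 8 hepatocyte genes were listed, all as down (CPS1, FGA, FGB and FGG). Both listed cholangiocyte markers of 5 (SOX9 and SPP1) and all 3 listed fibroblast markers of 6 (ACTA2, COL1A1 and COL1A2) were also down. Of these, SPP1, COL1A1 and COL1A2 are themselves members, so they give no separate reading. No endothelial marker of 4 was listed, and CD68 was up and CD14 down among 4 immune markers. The table holds no levels with which the cell type could be checked.

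Of the 62 members, 11 were listed as up and 51 as down, a share up of 17.7%, against 32.5% of all listed genes. The 8.20% up and 17.0% down of all background genes are on another base, since they also count genes not listed as changed. The other 2176 listed genes had 717 up and 1459 down, a share up of 33.0%. Since the direction comes from the comparison that chose the members, these shares describe the list and are not tested. Of the 25 genes that the rule removed, 2 were up, the kinase MAP2K1 and the AP-1 subunit JUN, and 23 were down. Among those 23 were THBS1, ROCK1, ROCK2, PRKCA, ACTB and CCND1. The members under both pathways numbered 29, with 5 up and 24 down. The 26 under Focal adhesion alone had 6 up and 20 down. The 7 under ECM-receptor interaction alone were all down (AGRN, CD47, DAG1, GP1BB, HMMR, HSPG2 and SDC1).

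**Figure D1:**
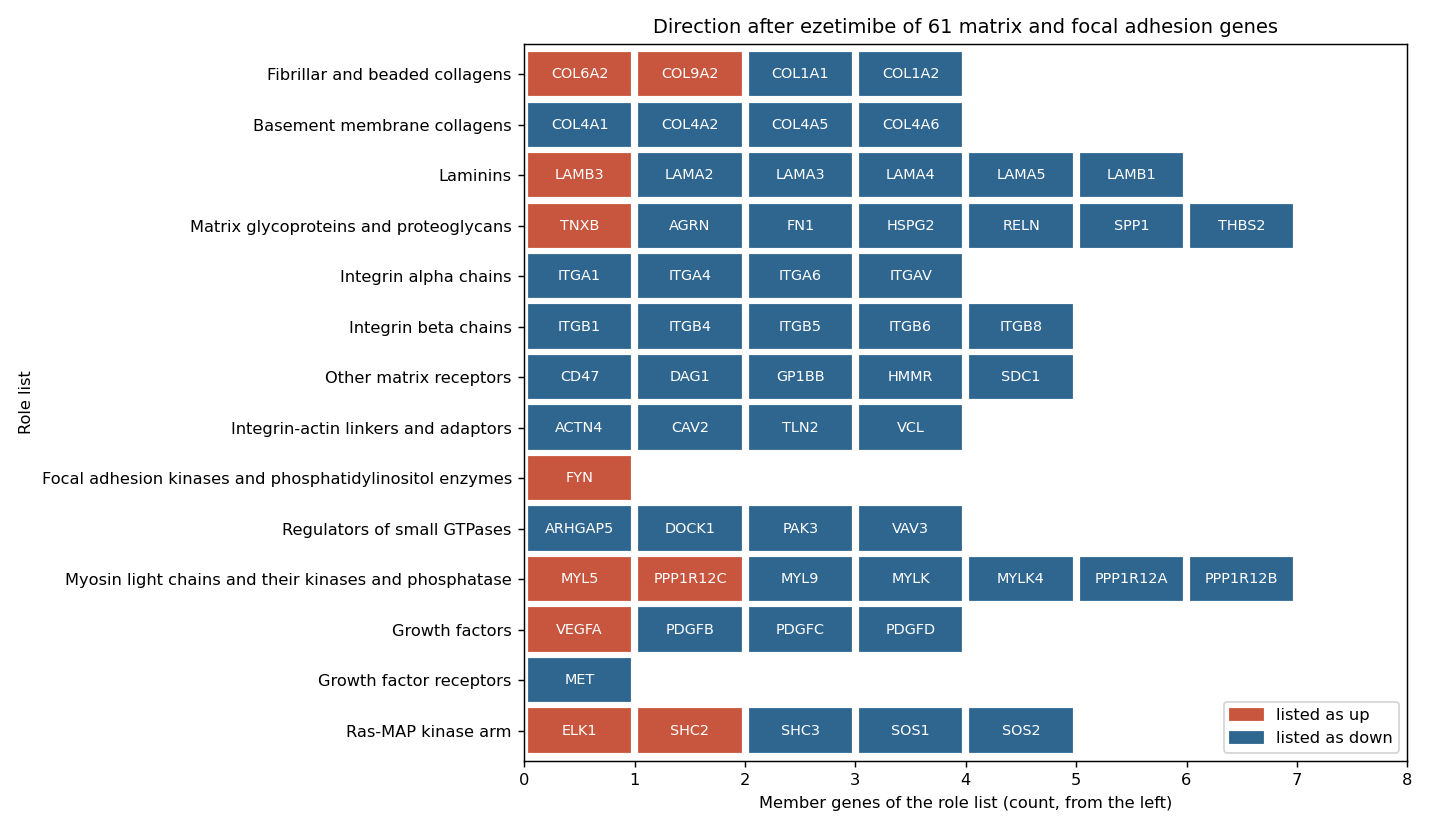
Each of the 61 tiles is a gene, placed in the row of its role list and coloured by the direction given in the authors' deposited table; the horizontal axis counts genes from the left. The rows of integrin chains, other matrix receptors, linkers, small GTPase regulators and basement membrane collagens hold genes listed as down, and the 10 tiles of genes listed as up are spread over 7 other rows.

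Matrix proteins made up 22 of the 62 members, with 5 listed as up and 17 as down. Of the 17 genes in the list of fibrillar and beaded collagens, which also holds the collagen IX chains, 4 were members. COL6A2, a chain of the beaded filament collagen VI, and COL9A2, a chain of the cartilage-type collagen IX, were up. COL1A1 and COL1A2, the chains of collagen I and the main fibrillar collagen of scar tissue, were both down. Neither partner chain of COL6A2 or of COL9A2 was listed. Of the same list, the fibrillar collagens COL5A2 and COL11A1, listed as changed but outside both pathways, were down. COL7A1, COL13A1, COL21A1 and COL27A1, collagens outside that list and not members, were listed as down too.

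All 4 members among the 6 collagen IV chains, the sheet-forming collagens of basement membranes, were listed as down, against 67.5% of all listed genes. COL4A1 and COL4A2 assemble with each other, and COL4A5 assembles with COL4A6 in some basement membranes. Each pair has neighbouring starts on opposite strands, from which the genes run away from each other in RefSeq. In RefSeq on GRCh38.p14, the start of COL4A1 on the minus strand of chromosome 13 and the start of COL4A2 on the plus strand are 127 bases apart. On chromosome X, the starts of COL4A6 and COL4A5 are 380 bases apart. In GENCODE release 29 the first pair overlaps instead, since COL4A2 begins at 110305812 and COL4A1 ends at 110307233. Both genes of each pair had the same direction. The bases between the starts are shown because each pair shares its upstream sequence. In both sequences capitals mark matches of the CCAAT box (CCAAT on either strand). The 126 bases between the starts of COL4A1 and COL4A2 are chr13:110307158-110307283, written on the plus strand, with a GC content of 80.2%:

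COL4A1-COL4A2: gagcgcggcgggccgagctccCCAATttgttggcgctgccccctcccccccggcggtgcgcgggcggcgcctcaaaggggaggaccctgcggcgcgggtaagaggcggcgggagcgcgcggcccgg

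The 250 bases before the start of COL4A5 are chrX:108439588-108439837 on the plus strand, all of them between the starts of COL4A6 and COL4A5, with a GC content of 51.2%:

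COL4A5: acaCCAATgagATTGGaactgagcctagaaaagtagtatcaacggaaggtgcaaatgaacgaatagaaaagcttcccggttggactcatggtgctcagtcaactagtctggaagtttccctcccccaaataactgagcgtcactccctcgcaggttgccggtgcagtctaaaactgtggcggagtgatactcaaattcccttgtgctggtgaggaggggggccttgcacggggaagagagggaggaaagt

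The CCAAT box was searched after the data were seen. The windows of each pair overlap, by 226 bases for COL4A1 and COL4A2 and by 121 bases for COL4A6 and COL4A5. The printed matches lie in these shared stretches, so each is counted for both genes of its pair. With that double counting, the box was found in the promoters of all 4 collagen IV members, in 17 of the 53 members with a promoter (32.1%), and in 35.7% of all 27305 promoters of the same length. A match of letters is a description and not a binding site.

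Among the laminins, the cross-shaped trimers of basement membranes, LAMB3 was up and LAMA2, LAMA3, LAMA4, LAMA5 and LAMB1 were down. LAMA3 and LAMB3 are the alpha and beta chains of the laminin on which epithelial cells are anchored through the integrin pair ITGA6 and ITGB4. These chains were split, with the beta chain listed as up and the alpha chain as down. Both integrin chains of the anchor were down. For the trimers that LAMA2, LAMA4 or LAMA5 forms with LAMB1 and LAMC1, the alpha and beta chains were down and LAMC1 was not listed. In GENCODE release 29 on GRCh38, LAMA3 lies on chromosome 18 (23689443 to 23956222, plus strand) and LAMB3 on chromosome 1 (209614870 to 209652466, minus strand).

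The promoters of LAMA3 and LAMB3 are shown because the 2 chains belong to 1 trimer and had opposite directions. Capitals mark the AP-1 heptamer, TGACTCA or its reverse complement TGAGTCA. The sequence for LAMA3 is chr18:23872770-23873019 on the plus strand (60.4% GC), and that for LAMB3 is chr1:209652426-209652675 on the minus strand (64.0% GC), from the first of 3 starts in RefSeq. The RefSeq start used for LAMA3 lies inside the gene as GENCODE gives it, so the window belongs to an internal start:

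LAMA3: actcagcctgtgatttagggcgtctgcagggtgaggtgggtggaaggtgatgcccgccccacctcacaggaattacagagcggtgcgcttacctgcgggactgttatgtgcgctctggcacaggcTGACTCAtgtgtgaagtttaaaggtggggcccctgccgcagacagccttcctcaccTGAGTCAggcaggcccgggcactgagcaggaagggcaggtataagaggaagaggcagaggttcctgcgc

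LAMB3: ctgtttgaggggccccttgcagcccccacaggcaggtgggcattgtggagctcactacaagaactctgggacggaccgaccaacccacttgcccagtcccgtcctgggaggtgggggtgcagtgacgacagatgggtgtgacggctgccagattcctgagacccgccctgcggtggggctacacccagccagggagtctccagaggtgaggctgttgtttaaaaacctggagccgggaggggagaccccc

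The LAMA3 window holds the heptamer at a pair of places and the LAMB3 window does not hold it. Of the 53 members with a promoter, LAMA3 and VAV3, both listed as down, held it (3.77%, against 4.92% of all promoters).

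Among 24 matrix glycoproteins and proteoglycans, 7 were members, of which TNXB was up and the other 6 down. TNXB encodes tenascin-X, which holds collagen fibrils together; part of the gene is repeated in the neighbouring pseudogene TNXA, so its call is uncertain. The genes listed as down were FN1 (fibronectin, the main adhesive glycoprotein of plasma and of provisional matrix), SPP1 (osteopontin), THBS2 (thrombospondin), RELN (reelin) and the basement membrane proteoglycans HSPG2 (perlecan) and AGRN (agrin). FN1 lies on chromosome 2 (215360440 to 215436172, minus strand), and COL1A1 on chromosome 17 (50183289 to 50201632, minus strand). THBS1, removed by the rule through its place under TGF-beta signaling, was also down.

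All 14 members that are matrix receptors were listed as down, against 67.5% of all listed genes. Over all background genes, 25.2% were listed as changed. They include 9 integrin chains, namely 4 of the 13 alpha chains (ITGA1, ITGA4, ITGA6 and ITGAV) and 5 of the 7 beta chains (ITGB1, ITGB4, ITGB5, ITGB6 and ITGB8) in the lists. ITGB1 (chromosome 10, 32900319 to 33005792, minus strand) pairs with more alpha chains than any other beta chain. Of 24 known integrin pairs, 8 had both chains listed as down. These were the collagen and laminin receptors ITGA1 with ITGB1, ITGA6 with ITGB1 and ITGA6 with ITGB4, the fibronectin receptor ITGA4 with ITGB1, and ITGAV with each of ITGB1, ITGB5, ITGB6 and ITGB8. The ITGAV pairs bind fibronectin, vitronectin or latent TGF-beta. Another 12 pairs had 1 chain listed and 4 had none. ITGAE, listed as down, and ITGAX, listed as up, are chains of leukocyte integrins outside both pathways. An unlisted gene may have missed the authors' call, gone undetected or stood in no KEGG pathway, so a pair with 1 listed chain does not show that the other chain kept its level.

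**Figure D2:**
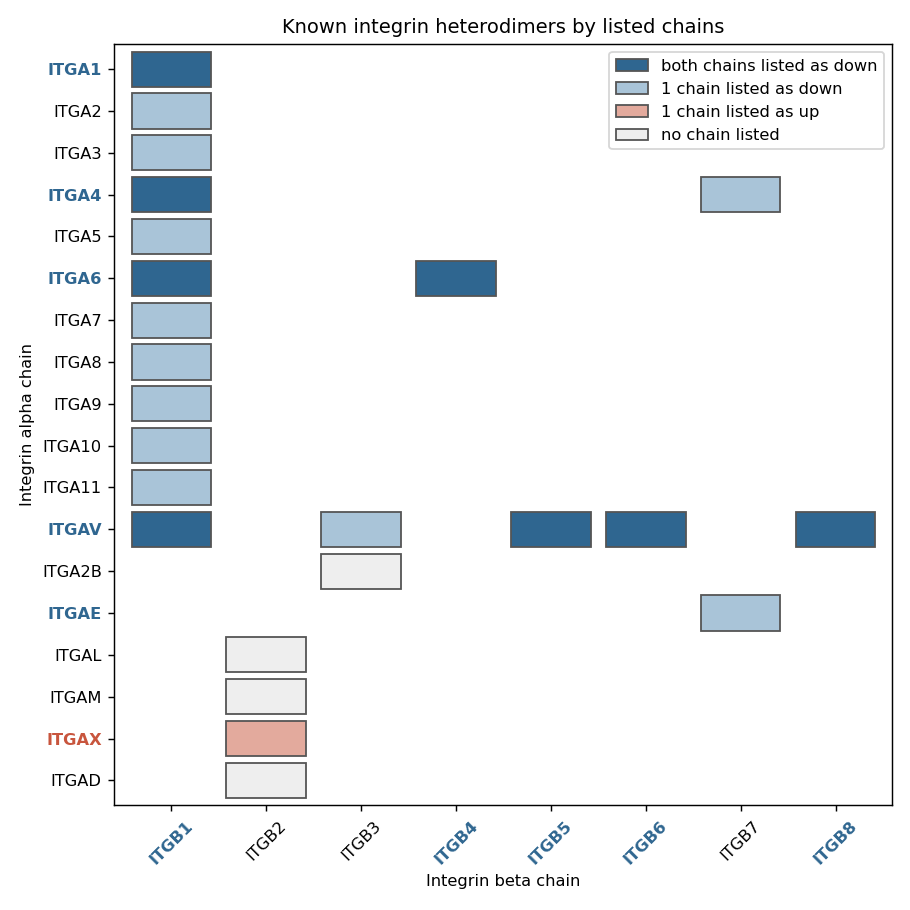
Boxes mark the 24 known integrin pairs by alpha chain (vertical axis) and beta chain (horizontal axis), with dark blue for both chains listed as down, light blue for 1 chain down, red for 1 chain up and grey for no chain listed; chain names in bold blue are listed as down and in bold red as up. The 8 dark boxes lie in the ITGB1 column, the ITGAV row and at ITGA6 with ITGB4.

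The other 5 receptors, of 15 in the list, were SDC1 (syndecan, a cell surface heparan sulfate proteoglycan), DAG1 (dystroglycan, a laminin receptor), CD47 (a receptor of thrombospondins), HMMR (a hyaluronan-binding protein that also acts at the mitotic spindle) and GP1BB (a chain of the platelet receptor of von Willebrand factor). The exons of GP1BB lie wholly within a read-through gene with its neighbour SEPT5, with all of its exon bases shared, so its reads cannot be assigned to it with certainty. ITGA1 has its annotated start 44 bases from that of PELO on the same strand. PELO encodes a factor that rescues stalled ribosomes, and the genes share 475 exon bases, 2.56% of those of ITGA1. ITGA1 was listed as down and PELO as up.

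Inside the cell, 4 of the 23 genes in the list of integrin-actin linkers and adaptors were members. All 4 were listed as down, against 67.5% of all listed genes. ACTB of that list, which the rule removed, was down too. With ACTB, 5 of the 23 genes in the list were down, beside 17.0% of all background genes listed as down. TLN2 encodes a talin, which binds integrin beta tails. VCL encodes vinculin, which reinforces the bond of talin to actin, ACTN4 encodes an actin-bundling actinin, and CAV2 a caveolin. CAV2, CAV1 and MET lie in 1 region of chromosome 7. The gap between CAV2 and CAV1 is 16243 bases and that between CAV1 and MET 111205 bases, and all 3 genes were down. MET, the receptor of hepatocyte growth factor, was the only member of the 9 growth factor receptors; IGF1R, which the rule removed, was down as well. The reads of VCL can include those of AP3M1, which shares 1109 exon bases on the opposite strand (11.1%) and was also listed as down, since it is not given whether counting used strand.

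The 4 members among 27 regulators of small GTPases were down, beside 17.0% of all background genes listed as down. They were the GTPase-activating protein ARHGAP5, the Rac activator DOCK1, the exchange factor VAV3 and the Rac effector kinase PAK3. The kinases ROCK1 and ROCK2, which promote contraction of actin and myosin and were removed by the rule, were down too. FYN, a kinase of the Src family, was the only member among 11 focal adhesion kinases and phosphatidylinositol enzymes and was up. PRKCA, a protein kinase C of that list that the rule removed, was down.

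Myosin light chains and the enzymes that set their phosphorylation had 2 of 7 members up (28.6%), near the 32.5% of all listed genes. MYL9, the regulatory light chain of smooth muscle and nonmuscle myosin, was down, and MYL5, another regulatory light chain, was up. The light chain kinases MYLK and MYLK4 were down. Of the targeting subunits of myosin phosphatase, which removes the phosphate, PPP1R12A and PPP1R12B were down and PPP1R12C was up. The catalytic subunits PPP1CB and PPP1CC, which the rule removed, were down. Genes listed as down thus stood on both sides of the phosphorylation step, the kinases and the phosphatase.

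Among 13 growth factors, VEGFA, the main angiogenic factor, was up, and PDGFB, PDGFC and PDGFD, ligands of the platelet-derived growth factor receptors, were down. Of the Ras and MAP kinase arm, 5 of 14 genes were members. The Ras activators SOS1 and SOS2 and the adaptor SHC3 were down, and the adaptor SHC2 and ELK1, a transcription factor that MAP kinases activate, were up. SOS1 and SOS2 were under 45 pathways each, the most of any member, and the median member was under 9 pathways, against 2 for all listed genes. In this arm 2 paralogues, SHC2 and SHC3, had opposite directions.

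Genes that build or cut the matrix but were not chosen by the rule were given for comparison. Of 28 such genes, 13 were listed, beside 25.2% of all background genes listed as changed. Of the 13, 7 were up and 6 down, where 32.5% of all listed genes were up. Up were the proteases MMP1, MMP3 and MMP9, the protease inhibitor TIMP1 and the collagen-modifying enzymes P4HA2, P4HB and PLOD3. Down were the proteases MMP7, MMP14, PLAU and CTSK and the collagen-modifying enzymes P4HA1 and PLOD2. Of 22 actin regulators outside the rule, 5 were listed, beside the same 25.2% of background genes. WASF2 was up and ACTR3, CFL2, NCKAP1 and RDX were down, where 32.5% of all listed genes were up. All 9 listed genes among 10 of ATF4 and the unfolded protein response were up, against 32.5% of all listed genes. That list was drawn up with earlier results of these data known. It includes the chaperones HSPA5 and CALR, which act on secreted and membrane proteins in the endoplasmic reticulum. A link to the members was not tested.

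In the authors' deposited table, Focal adhesion had 80 changed genes of 213 in the background (37.6%, 13 up and 67 down), with a rich factor of 1.49, p = 0.000737 and q = 0.0105. In the authors' deposited table, ECM-receptor interaction had 37 of 98 (37.8%, 5 up and 32 down), with a rich factor of 1.50, p = 0.0162 and q = 0.0817. The rich factor divides a pathway's share among the changed genes by its share among the background genes. These ranked 23 and 65 of the 327 pathways by the authors' p, which takes genes as units; the sources used here do not name its test.

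Other pathways that hold many of the members were PI3K-Akt signaling, with 36, and Regulation of actin cytoskeleton, with 27. Of the members under Regulation of actin cytoskeleton, 2 were up (7.41%), against 13 of the other 44 listed genes of that pathway (29.5%). Under PI3K-Akt signaling, 6 of the 36 members were up (16.7%), against 27 of the other 83 (32.5%). Under Small cell lung cancer, 2 of 15 members were up (13.3%), against 12 of the other 39 (30.8%). The 3 cardiomyopathy pathways held the same 11 members, which were DAG1, LAMA2 and the 9 integrin chains, all down. Their other listed genes were also mostly down, with 2 of 15, 3 of 24 and 4 of 23 up. Other pathways went the other way. Under Protein digestion and absorption, 2 of 8 members were up (25.0%), against 2 of the other 16 (12.5%). Under Axon guidance, 2 of 6 members were up (33.3%), against 14 of the other 74 (18.9%). Under Hepatocellular carcinoma, 2 of 6 members were up (33.3%), against 19 of the other 74 (25.7%). Over the 41 further pathways with at least 5 members, the share up was lower among members in 33, higher in 7 and equal in 1. Under Focal adhesion itself, 11 of the 55 members were up, against 2 of the 25 genes that the rule removed. Pathways share genes, so these counts overlap, and the differences were not tested.

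**Figure D3:**
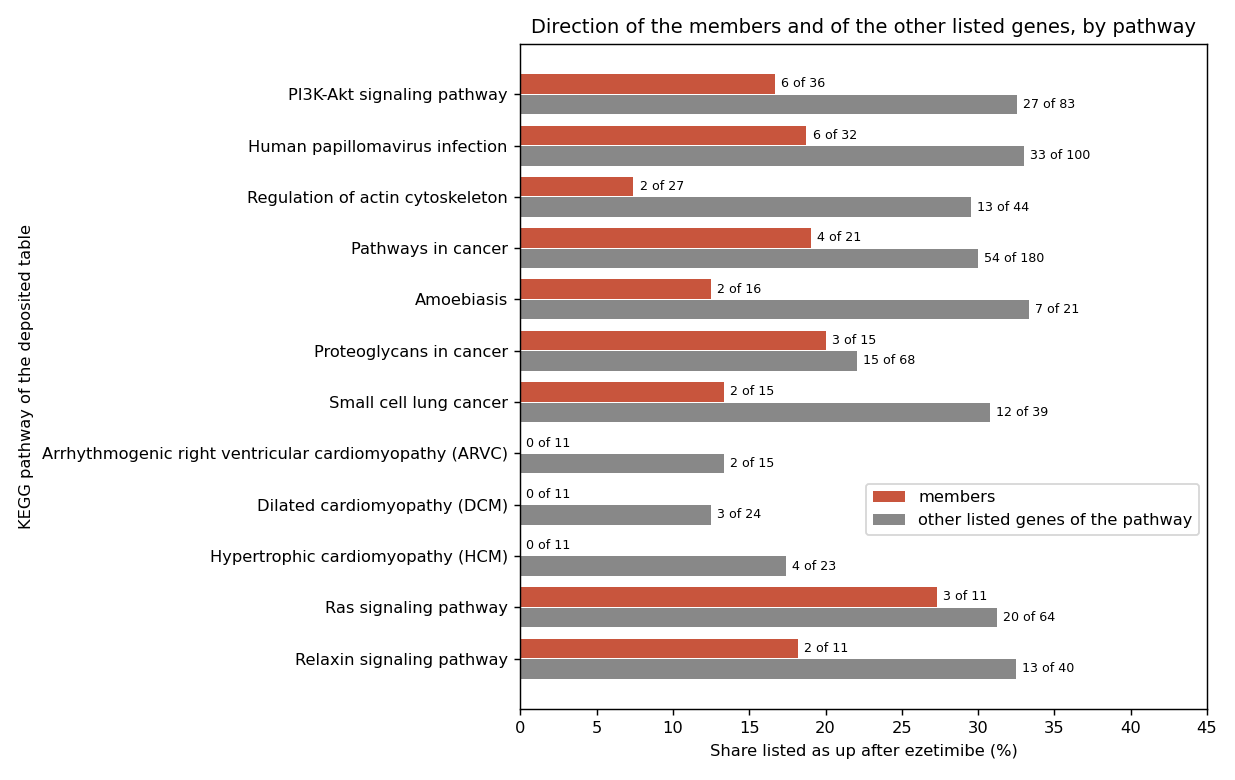
Bars give the share listed as up (horizontal axis, percent) among the members (red) and among the other listed genes (grey) of the 12 further KEGG pathways that hold most members, with the counts beside each bar. In Regulation of actin cytoskeleton 2 of 27 members and 13 of 44 other genes were up, and in the cardiomyopathy pathways 0 of 11 members.

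Direction went with the base composition of the transcripts among the members too. The longest transcript's GC content had a median of 61.0% among members up (range 48.4 to 68.1%, n = 11 genes) and among members down of 46.6% (34.2 to 71.1%, n = 51 genes). Over all listed genes the medians were 55.2% for those up and 43.6% for those down. Of the 23 members under 45% GC, none was up, against 93 of the 931 other listed genes in that class (9.99%). From 45% to under 60%, 5 of 23 members were up (21.7%), against 449 of 971 (46.2%). At 60% or more, 6 of 16 members were up (37.5%), against 175 of 273 (64.1%). Direction and GC content therefore moved together, and the part of base composition in the direction of the members was not tested.

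Members listed as down at a GC content of 60% or more were GP1BB (71.1%), AGRN (67.5%), LAMA5 (66.4%), HSPG2 (64.5%), ITGB4 (63.7%), COL1A1 (61.1%), COL4A2, PDGFB, MYL9 and SDC1. At the other end, FYN was the member listed as up with the lowest GC content (48.4%), and VEGFA had 54.6%.

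The median longest transcript was 3628 bases for members up and 6494 bases for members down, against 2860 bases for all listed genes up and 4401 bases for all listed genes down. The difference depended on the measure. By the mean over a gene's transcripts the medians were 1614.5 bases for members up and 2275.9 bases for members down, and by coding length 2067 bases for members up and 3402 bases for members down. The median gene span was 34753 bases for members up and 114439 bases for members down. TNXB, with 13831 bases, and VEGFA, with 12167 bases, were the longest among members up. Among members down, PPP1R12B had 15431 bases, HSPG2 14327 bases and TLN2 11880 bases. The longest annotated transcript need not be the one these cells use.

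**Figure D4:**
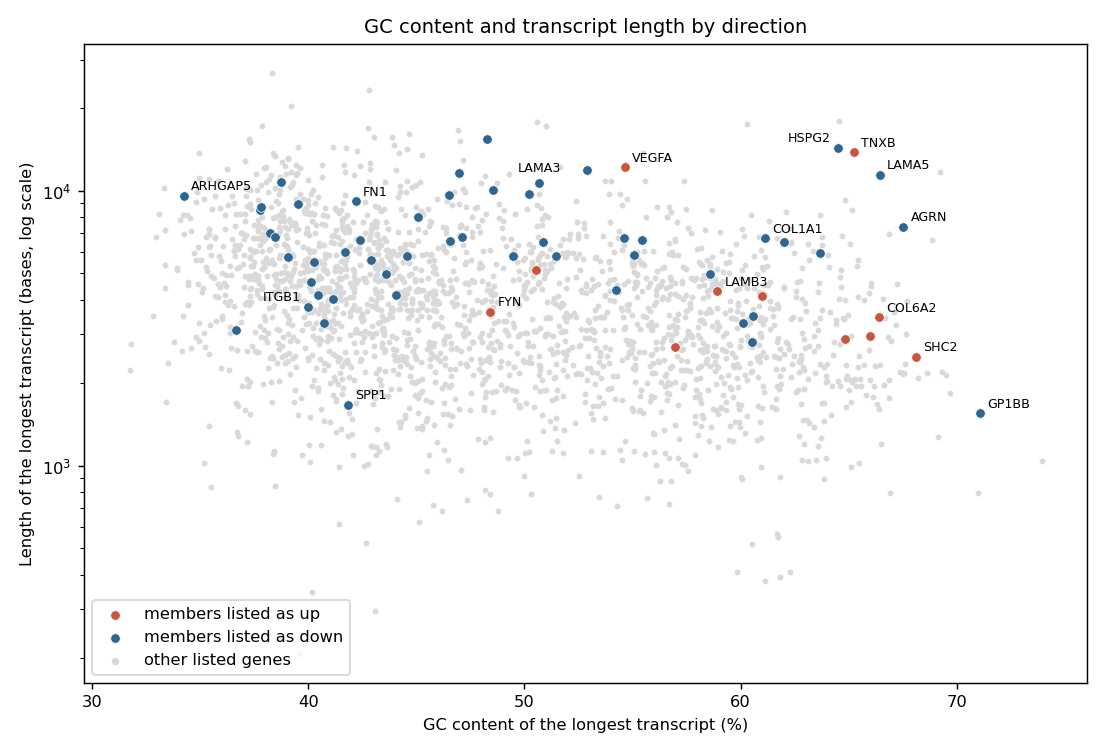
Each point is a gene, by the GC content (percent) and the length (bases, log axis) of its longest transcript in GENCODE release 29, with members listed as up in red, members listed as down in blue and other listed genes in grey. No member listed as up lies under 45% GC, and the 10 members listed as down at 60% or more include AGRN, LAMA5, HSPG2 and COL1A1.

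Promoters differed less by direction than transcripts did. The median GC content of the 300 bases around the start (250 before to 50 after) was 71.7% for the 9 members up and 68.5% for the 44 members down that have a promoter in the RefSeq table. Over all listed genes with a promoter these medians were 65.8% for those up and 65.0% for those down. The members with the highest value among those up (COL6A2 and SHC2) and with the lowest among those down (ITGB6 and VAV3) are shown for the range of base composition. In them capitals mark the CArG box in ITGB6, and the AP-1 heptamer and the CCAAT box in VAV3; the sequences of COL6A2 and SHC2 match no motif searched. The 250 bases before each start in GRCh38.p14 are chr21:46097862-46098111 on the plus strand for COL6A2 and chr19:461034-461283 on the minus strand for SHC2. Those for ITGB6 are chr2:160200273-160200522 and those for VAV3 chr1:107688500-107688749, both on the minus strand. The start of VAV3 used here also lies inside the GENCODE gene:

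COL6A2: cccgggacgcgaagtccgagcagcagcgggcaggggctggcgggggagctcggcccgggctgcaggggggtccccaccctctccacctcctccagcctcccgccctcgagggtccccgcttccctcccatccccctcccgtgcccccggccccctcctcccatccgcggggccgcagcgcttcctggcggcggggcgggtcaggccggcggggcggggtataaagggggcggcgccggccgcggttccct

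SHC2: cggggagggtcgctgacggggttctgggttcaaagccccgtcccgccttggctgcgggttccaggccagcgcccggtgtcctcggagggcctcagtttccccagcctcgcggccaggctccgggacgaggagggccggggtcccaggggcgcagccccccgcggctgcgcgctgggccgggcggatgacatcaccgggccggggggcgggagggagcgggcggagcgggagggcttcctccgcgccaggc

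ITGB6: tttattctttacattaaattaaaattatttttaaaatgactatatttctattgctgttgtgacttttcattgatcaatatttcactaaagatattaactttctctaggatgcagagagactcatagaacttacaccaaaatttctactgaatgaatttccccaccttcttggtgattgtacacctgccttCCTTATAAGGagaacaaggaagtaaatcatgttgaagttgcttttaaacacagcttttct

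VAV3: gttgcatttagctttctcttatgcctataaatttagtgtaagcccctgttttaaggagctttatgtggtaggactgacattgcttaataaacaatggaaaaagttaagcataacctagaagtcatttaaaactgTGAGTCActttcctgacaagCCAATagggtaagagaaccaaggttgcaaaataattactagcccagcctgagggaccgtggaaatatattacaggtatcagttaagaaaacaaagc

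These 250 bases had a GC content of 79.6% in COL6A2 and 78.0% in SHC2, both listed as up, and of 30.0% in ITGB6 and 37.2% in VAV3, both listed as down. COL6A2 held 28 CG pairs and SHC2 held 29, against 0 in ITGB6 and 1 in VAV3. These genes were picked as extremes of GC content in each direction, so this contrast follows from the choice. High GC content at the start was not confined to members up: HSPG2 and RELN, both down, had 83.3% each over the 300 bases.

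The other motifs were searched on both strands in the same 53 promoters of 300 bases. The TEAD motif GGAATG was in 8 (15.1%, against 14.0% of all promoters), namely DOCK1, HMMR, ITGB1, LAMA2, MYLK, THBS2 and VCL among members down and PPP1R12C among members up. The cyclic AMP response element TGACGTCA was in 3 (5.66%, against 1.98%), FN1 down and MYL5 and PPP1R12C up. The ATF4 composite motif TGATGNAA was in 3 (5.66%, against 3.67%), ITGB5 and MYLK down and ELK1 up. The CArG box, the site of serum response factor, was in 2 (3.77%, against 1.29%), ITGB6 and MYLK, both down. MYLK thus held the TEAD, ATF4, CArG and CCAAT letters. These counts are small, and no match says only that the letters are not in this window.

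Some calls rest on genes whose exons overlap others. Exon bases were shared with another gene on the same strand in 8 members and on the opposite strand in 25, and 33 members shared none, so some members did both. More than 10% of the exon bases were shared with 1 gene in 8 members, which were ACTN4, ARHGAP5, GP1BB, HSPG2, ITGB6, MYL5, PPP1R12B and VCL. For MYL5, listed as up, the overlapping gene is ATP5ME on the opposite strand (13.4%), which was not listed.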

How the data were processed

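Total RNA of 1 ezetimibe library and 1 control library was sequenced. HISAT2 2.0.4 and StringTie 1.3.0 were used, per the submitters' processing notes; the sources used here state no build, annotation, depth or threshold. The deposited table is a KEGG enrichment of the authors' differential expression calls. Per the file headers, each pathway has its changed genes by direction, numbers of genes, the authors' rich factor (a ratio), and the authors' p-value with its q-value; it gives no reads or levels. That up means higher after ezetimibe is taken from how the comparison is named and could not be checked.

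Members were found by gene ID, and all 62 matched GENCODE release 29, as did 2237 of the 2238 listed genes. Promoter sequences are from RefSeq (GRCh38.p14), matched by symbol for 53 members, with the first start where several are given. Counts are descriptions: no test was run, since there is 1 library per group and the members were chosen by the same comparison. The members, role lists and motifs were chosen with earlier results of these data known. Members were named with their direction, some items are not reported here, with more depth for the less frequent direction of each list and for widely annotated members; the collagen IV and LAMA3 and LAMB3 promoters and the neighbouring genes were added after values were seen. Motifs planned for amino acid sequences were not analysed here. Reading of the table and the rule were tested on simulated data. Tables were handled in pandas 2.3.3 under Python 3.11.15 (NumPy 2.4.6), intervals came from SciPy 1.17.1 and plots from Matplotlib 3.10.9.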

Additional observations from a re-analysis of the deposited data

How the results depend on the processing

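Of 45 alternative values of 23 results, 43 stayed within bounds, none reversed and 2 moved. The bounds were the exact Clopper-Pearson 95% interval of the share (counting error only). For a difference in medians they were 1 SD of the feature over members. That SD is a spread among genes and not the error of a difference, so staying within it says little. Many alternatives held the same genes as the main value, such as members in a role list only (11 of 62), and so could not move. The interval takes genes as independent draws, though all come from 1 comparison. The share of members listed as up, 17.7% (9.20 to 29.5%), lay between 13.9% for members under ECM-receptor interaction and 27.8% for the 18 members under 5 or fewer pathways. It was 14.9% with nothing subtracted and 16.7% without TNXB and GP1BB, an alternative chosen after seeing the data. Among growth factors the share up, 25.0%, was 0.0% for members under 20 or fewer pathways, which leaves out VEGFA. The difference in median GC content between members up and members down was 14.4 percentage points in the longest transcript, 15.1 as the mean over transcripts and 3.17 in promoters; the cause was not tested. The difference in median transcript length, members up minus members down, was -2866 bases for the longest transcript, -661.4 bases for the mean over transcripts and -1335 bases for coding length. No paired analysis was possible because each group has 1 library and the table holds no value per library, and for that reason no replicate could be left out. Role lists have 7 or fewer members and wide intervals, so staying within them says little. Amino acid motifs were not run.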

Other observations

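Neighbours of members within 200000 bases showed opposite directions as well as shared ones. LAMA5, listed as down, overlaps ADRM1, a proteasome subunit listed as up, and its start lies 19804 bases from that of the ribosomal protein gene RPS21, also listed as up. PPP1R12B and UBE2T, both listed as down, start 6719 bases apart. ELK1 and the protease inhibitor TIMP1, both listed as up, have a gap of 48731 bases on chromosome X. These pairs were picked after their directions were seen.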
